A study of Homo sapiens with 35 samples.

Results

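The combination of PP242 and IR was examined for its effect on translational efficiency (TE) in SUM149, a human cell line from a triple-negative inflammatory breast cancer. PP242 competes with ATP at mTOR and inhibits both mTOR complexes. IR is ionizing radiation, from what is known of the study. For each gene, TE was taken as the log2 level in polysome RNA, the RNA on messages carrying several ribosomes, minus the log2 level in total RNA. The TE change was the TE of cells given PP242 + IR minus the TE of cells given DMSO, the vehicle. It used 11 of the series' 35 arrays: 3 of PP242 + IR polysome RNA, 2 of PP242 + IR total RNA, 3 of DMSO polysome RNA and 3 of DMSO total RNA, which the labels call biological replicates. The other arrays held both RNA fractions after IR, PP242, RAD001 and RAD001 + IR. RAD001 (everolimus) is a rapamycin analog that acts on the first mTOR complex. The labels used here state neither dose nor time, and all groups came from the 1 cell line. In such bulk RNA, fewer cells of a type and less RNA per cell cannot be told apart. All 22384 genes with a named probe set were tested, of which 17068 were protein-coding.

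Protein synthesis is controlled mainly at initiation, and mTOR is one of its main regulators. Active mTOR phosphorylates the 4E-BPs, which otherwise hold the cap-binding protein eIF4E, and LARP1, which otherwise binds the caps of TOP messages. TOP messages begin with a C followed by an unbroken run of pyrimidines, the 5′ terminal oligopyrimidine tract. They encode the ribosomal proteins, elongation factors and several initiation factors, and mTOR kinase inhibitors are known to move them off polysomes.

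Some arrays stood apart from others of the same treatment. They numbered 8 of the 35, and in them genes of the cell cycle were dimmer and those of sterol synthesis brighter. These were replicate 3 of each inhibitor group and PP242 + IR total replicate 2, so that 1 of the 3 PP242 + IR polysome arrays and 1 of the 2 total arrays belonged to them. The labels name no batch. Replicate arrays of the 4 groups correlated at 0.981 to 0.996 over all genes, and none of these arrays was a copy of another. The counts of calls, the leading genes and the list medians below are also given without the 8 arrays. That leaves 1 PP242 + IR total array, so those values lack replication in that group. On arrays, a level shows a probe set's brightness, so changes were compared between samples. Where genes are called bright or dim, or markers are read by their level, this rests on probe set brightness too.

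No gene passed the test for TE. At an adjusted p under 0.05 (limma, Benjamini-Hochberg over all genes), 0 of 22384 genes were called (0.0%), and the smallest adjusted p was 1.00. At an unadjusted p under 0.05, 258 genes were lower (1.15%) and 237 higher (1.06%) after PP242 + IR, 2.21% in all. With no change in any gene and a well-estimated spread, that share would lie close to the threshold itself. It was smaller here, for a reason that was not tested, so the lack of calls does not show that TE was unchanged. The median TE change of all genes was 0.02 on the log2 scale and the median standard error 0.26. Against the DMSO mean of the same fraction, the all-gene median lay from -0.03 to 0.04 in every PP242 + IR and DMSO array. With medians this alike and the normalization not known, a change in polysome loading shared by all genes could not be read. TE changes are thus relative to other genes, and the 0.02 does not show that total translation was unchanged. Of the 8 protein-coding genes of lowest p that were lower, NAP1L1, EIF2S3 and YBX1 were on the list of TOP messages other than ribosomal proteins. That list holds 25 of the 22384 genes. It was chosen with earlier results of these data known, so the overlap is a description and not a test.

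NAP1L1 encodes a histone chaperone and is a known TOP message. In polysome RNA its log2 level was 11.26, 10.94 and 11.59 after PP242 + IR, against 11.91, 11.77 and 11.99 after DMSO. In total RNA it was 12.47 and 12.76 after PP242 + IR, against 11.83, 11.999 and 11.90 after DMSO. The PP242 + IR arrays thus lay below every DMSO array in polysome RNA and above every DMSO array in total RNA. The TE change was -1.33 ± 0.31 (SE; 95% interval -1.98 to -0.69; unadjusted p = 0.000255, limma), and it was -1.35 without the 8 arrays. With a term in the fit for those 8 arrays it was -1.25 ± 0.17 with an adjusted p of 0.00245 (limma), the only TE call at that threshold over all settings run.

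EIF2S3 encodes the gamma subunit of eIF2, which carries the initiator tRNA to the ribosome. Its polysome level was 13.75, 13.56 and 13.86 after PP242 + IR, against 14.45, 14.45 and 14.59 after DMSO. Its total level was 14.64 and 14.29 after PP242 + IR, against 14.29, 14.25 and 14.41 after DMSO. The polysome groups did not overlap and the total groups did. The polysome change passed the test (fell by 0.78 ± 0.15 on the log2 scale, SE; adjusted p = 0.033, limma), the total change was 0.15 ± 0.17, and the TE change of -0.92 ± 0.22 (unadjusted p = 0.000347) did not pass.

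YBX1 encodes a Y-box protein that binds messenger RNA and is itself a translational regulator. Polysome levels were 14.52, 14.31 and 14.51 after PP242 + IR, against 15.10, 14.95 and 15.28 after DMSO. Total levels were 15.74 and 15.81 after PP242 + IR, against 15.73, 15.63 and 15.80 after DMSO. Here too only polysome RNA separated the groups: the polysome change passed (fell by 0.66 ± 0.13, SE; adjusted p = 0.033, limma), beside a total change of 0.05 ± 0.14. The TE change was -0.72 ± 0.19 (unadjusted p = 0.001) and did not pass. Without the 8 arrays the TE change was -1.17 for EIF2S3 and -0.71 for YBX1.

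**Figure D1:**
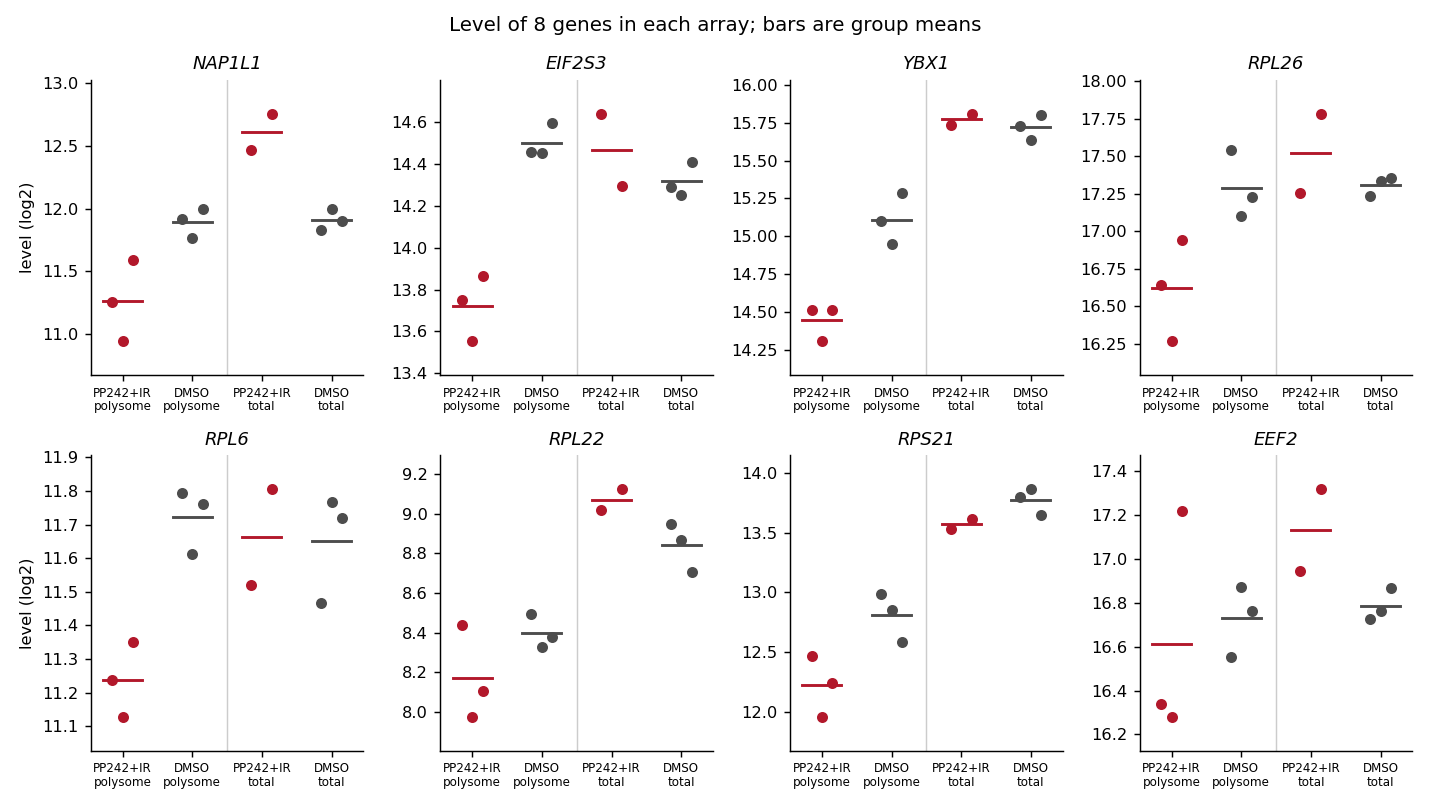
Log2 level (vertical axis) of 8 genes of the TOP class in each array of PP242 + IR (red) and DMSO (grey), with polysome RNA left and total RNA right of the line in each panel; points are arrays and bars are group means. NAP1L1, EIF2S3, YBX1, RPL26, RPL6 and RPS21 lie below every DMSO array in polysome RNA, while RPL22 and EEF2 overlap. All but RPS21 and EEF2 were chosen by their low p for TE in these arrays. Such separation held for 23 of 48 ribosomal proteins and 10 of 25 other TOP messages. It held for 14.1% of protein-coding genes of mean level 8 or more.

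The first 20 bases of these transcripts are shown because the tract at the very start defines the class. Sequences and starts are from RefSeq (GRCh38.p14), 5′ to 3′, with the tract in capitals where a C was followed by at least 4 more pyrimidines. The RefSeq start is not always the start used in a given cell.
NAP1L1: CTTTTTTagcgccatctgct
EIF2S3: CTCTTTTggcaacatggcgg
RPL26: CTCTTCCCTTTTgcggccat
RPL22: CCTTTCTaactccgctgccg
RPS21: CCTTTCTCTCTCgcgcgcgg
EEF2: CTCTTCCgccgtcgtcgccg
YBX1: attctcgctagttcgatcgg
RPL6: tgaatcagaaccagaaaaag
RDH14: gtacaggtggtctcttgggt
TRMT10A: actgcgtaactaccgcccct
NAP1L1 lies at chr12:76084666-76084685 on the minus strand and EIF2S3 at chrX:24054956-24054975 on the plus strand, and both begin with a tract of 7 bases. RPL26 (chr17:8383174-8383193, minus) and RPS21 (chr20:62387103-62387122, plus) begin with 12, and RPL22 (chr1:6199576-6199595, minus) and EEF2 (chr19:3985444-3985463, minus) with 7. YBX1 (chr1:42682418-42682437, plus) and RPL6 (chr12:112411423-112411442, minus) are classed as TOP or ribosomal protein messages but hold no such tract at the RefSeq start. RDH14 (chr2:18560634-18560653, minus) and TRMT10A (chr4:99564020-99564039, minus), the other genes among the 5 protein-coding ones of lowest p that were lower, do not hold one either.

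The cytosolic ribosomal proteins, the protein part of the ribosome itself, lay lower in TE, mostly below 0. Of the 48 members measured on a probe set of their own, 45 had a TE change below 0, against 46.4% of all genes and 64.1% of protein-coding genes of mean level 8 or more, the brighter genes to which most members belong. The median was -0.46 (quartiles -0.58 and -0.27), beside 0.02 for all genes and -0.11 for those brighter genes. None passed the test for TE singly, and 4 had an unadjusted p under 0.05, all lower, where 1.15% of all genes and 1.47% of the brighter genes did. A further 21 members shared a probe set with another gene and 11 had no probe set with a single symbol, and these were not analysed here. Ribosomal protein genes have many near-identical pseudogenes, so their probe sets may also report those copies.

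The shift lay in polysome RNA. The median polysome change of the 48 was -0.38 with 47 below 0 (46.2% of all genes and 65.1% of the brighter genes), and the median total change was -0.01 with 24 below 0. In 23 of the 48, all 3 PP242 + IR polysome arrays lay below all 3 DMSO polysome arrays, against 7.49% of all genes and 14.1% of the brighter genes. RPL26, a large-subunit protein, had polysome levels of 16.64, 16.27 and 16.95 after PP242 + IR, against 17.55, 17.10 and 17.23 after DMSO. Its total levels were 17.26 and 17.78 after PP242 + IR, against 17.24, 17.34 and 17.36 after DMSO, so that only the polysome groups were apart. The TE change was -0.88 ± 0.34 (SE; unadjusted p = 0.0152, limma).

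RPL6, another large-subunit protein, had polysome levels of 11.24, 11.13 and 11.35 after PP242 + IR, against 11.80, 11.61 and 11.76 after DMSO. Its total levels overlapped between the groups, and its TE change was -0.50 ± 0.19 (unadjusted p = 0.0131). RPL22 had a TE change of -0.45 ± 0.20 (unadjusted p = 0.0301), with overlapping polysome levels and higher total levels after PP242 + IR (9.02 and 9.12) than after DMSO (8.95, 8.87 and 8.71). RPS21, a small-subunit protein, had polysome levels of 12.47, 11.96 and 12.24 after PP242 + IR, against 12.98, 12.85 and 12.59 after DMSO. RPS21 was also lower in total RNA, at 13.53 and 13.62 after PP242 + IR, against 13.80, 13.86 and 13.65 after DMSO, and its TE change was -0.38 ± 0.27. The ends of the list, named after their values were seen, were RPS19 at -1.10 ± 0.60 and RPL41 at 0.44 ± 0.38. FAU and RPLP1 were the other members above 0, at 0.20 ± 0.30 and 0.13 ± 0.49.

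The other TOP messages, which encode elongation factors, initiation factors, poly(A)-binding protein and further growth-related proteins, also lay mostly below 0. Of 25 measured members, 23 were below 0 (64.1% of the brighter genes), and the median TE change was -0.41. At an unadjusted p under 0.05, 4 were lower (1.47% of the brighter genes): NAP1L1, EIF2S3, YBX1 and the eIF3 subunit EIF3E (-0.60 ± 0.29). The median polysome change was -0.31 and the median total change 0.15, with 19 of 25 above 0 in total RNA (44.4% of all genes and 50.1% of the brighter genes). In 10 of the 25, all PP242 + IR polysome arrays lay below all DMSO polysome arrays, against 14.1% of the brighter genes. EEF2, the elongation factor that moves the ribosome along the message, had polysome levels of 16.34, 16.28 and 17.22 after PP242 + IR, against 16.55, 16.87 and 16.76 after DMSO. The third of these PP242 + IR arrays, replicate 3, lay above all DMSO arrays while replicates 1 and 2 lay below them. The TE change of EEF2 was -0.46 ± 0.42 and -0.58 without the 8 arrays. From the arrays that stand apart alone, PP242 + IR polysome replicate 3 and total replicate 2 without replication, it was -0.04. PABPC1, the main poly(A)-binding protein, had -0.48 ± 0.29.

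The shift of both lists varied between arrays. Against the DMSO mean of the same fraction, the median ribosomal protein lay at -0.34, -0.72 and -0.13 in PP242 + IR polysome replicates 1, 2 and 3, and at 0.14, -0.06 and -0.08 in the DMSO polysome arrays. In total RNA it lay at -0.13 and 0.13 after PP242 + IR, and at -0.02, -0.10 and 0.08 after DMSO. For the other TOP messages the polysome values were -0.33, -0.50 and -0.06 after PP242 + IR and 0.03, -0.06 and 0.02 after DMSO. Polysome replicate 3, one of the arrays that stand apart, was thus close to the DMSO arrays for both lists.

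Without the 8 arrays the median TE change was -0.43 for both lists, but that of the brighter genes was -0.22, so the gap between them was smaller than with all arrays. With a term for the 8 arrays the medians were -0.41 for ribosomal proteins (45 of 48 below 0) and -0.35 for other TOP messages, beside -0.12 for the brighter genes. With that term, 9 ribosomal proteins and 8 other TOP messages had an unadjusted p under 0.05 and were lower, against 1.95% of all genes and 2.98% of the brighter genes. Leaving out 1 array at a time, the ribosomal protein median ran from -0.60 (without PP242 + IR total replicate 1) to -0.30 (without PP242 + IR polysome replicate 2), and that of other TOP messages from -0.55 (without PP242 + IR polysome replicate 3) to -0.27 (without PP242 + IR polysome replicate 2). The brighter protein-coding genes moved with the array left out too. Without PP242 + IR total replicate 2 the medians were -0.33 for ribosomal proteins and -0.30 for other TOP messages, close to the -0.25 of the brighter genes. Without PP242 + IR total replicate 1 they were -0.60 and -0.46, beside 0.02 for the brighter genes, so the gap to other bright genes depended on which total array was used. After quantile normalization between arrays the medians were -0.34 and -0.34 for the lists and 0.02 for the brighter genes.

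**Figure D2:**
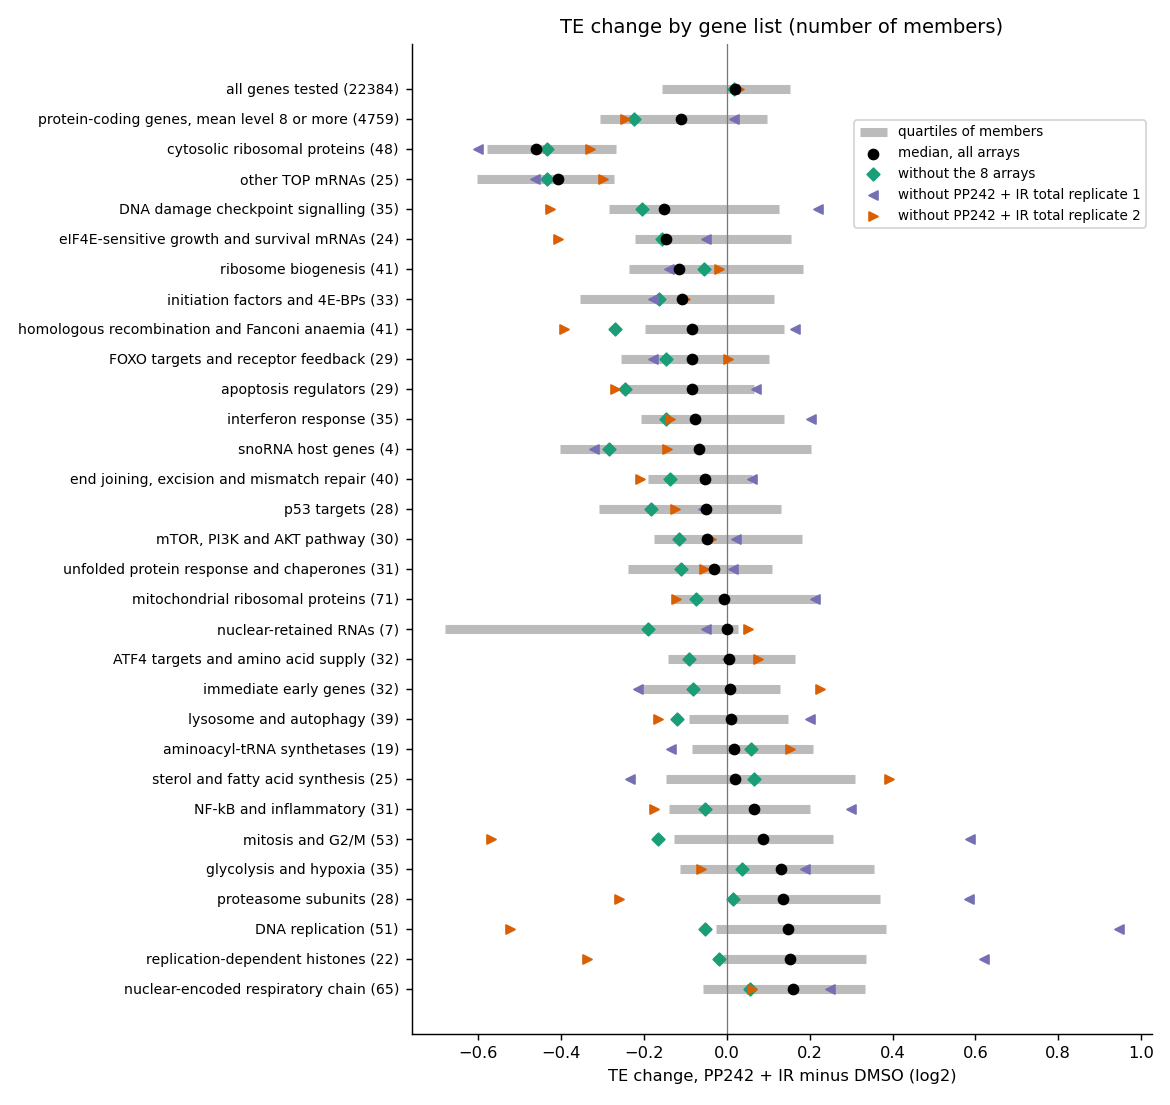
TE change, PP242 + IR minus DMSO on the log2 scale (horizontal axis), for all genes, the brighter protein-coding genes and 29 gene lists; black points are medians, grey bars the quartiles of members, and coloured marks the medians with arrays left out. Ribosomal proteins and other TOP messages stay below 0 in every setting drawn, while the lists of DNA replication, mitosis, histones and proteasome subunits cross 0 with the PP242 + IR total array that is used.

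The tract was then read at the RefSeq start of all protein-coding genes, independently of the lists. A tract of 5 or more was present in 32 of 43 ribosomal proteins with a RefSeq window (74.4%), in 16 of 18 other TOP messages (88.9%) and in 4.54% of all 22199 protein-coding RefSeq windows. Only the given strand from the first base was read. Among the 4021 genes of mean level 8 or more with a window, the 232 with a tract had a median TE change of -0.24 and the 3789 without one had -0.10. Leaving out both lists, 194 genes with a tract had a median of -0.20 with 72.2% below 0, and 3778 without one had -0.10 with 63.1% below 0. In those 194 the median polysome change was -0.08 and the median total change 0.10, while genes without a tract had -0.11 in polysome RNA and -0.01 in total RNA. Outside the lists the difference thus lay in total RNA and not in polysome RNA. Outside the lists, leaving out the 8 arrays gave medians of -0.30 with a tract and -0.22 with none. With all arrays and the lists included, the median TE change was -0.27 for tracts of 8 or more (83 genes) and -0.23 for 5 to 7 (149 genes). Outside the lists these medians were -0.26 (65 genes) and -0.17 (129 genes). These are descriptions of overlapping distributions. With the lists included, the quartiles were -0.45 and -0.01 for genes with a tract and -0.30 and 0.11 for genes without. Outside the lists they were -0.41 and 0.01 with a tract and -0.29 and 0.11 without.

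**Figure D3:**
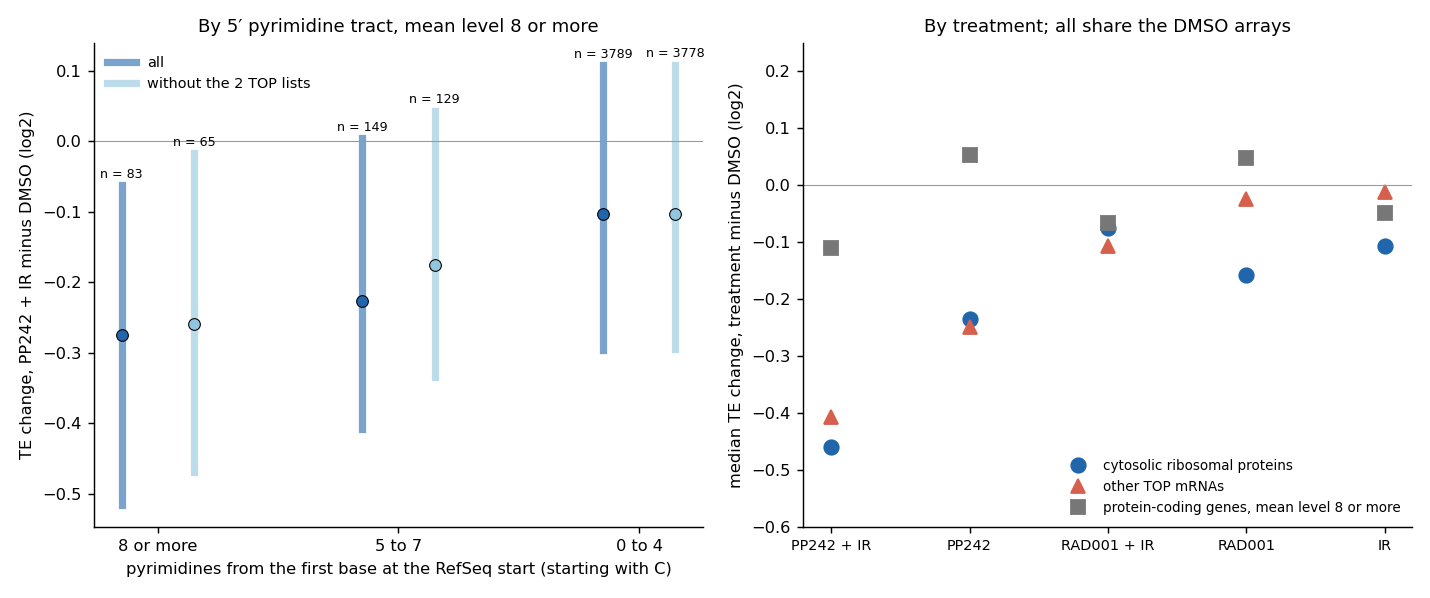
Left, TE change after PP242 + IR minus DMSO (log2) by length of the pyrimidine tract at the RefSeq start, as medians (points) and quartiles (bars), for genes of mean level 8 or more with and without the 2 TOP lists. Right, median TE change of 3 gene groups in each treatment minus DMSO. The TOP lists reach -0.46 and -0.41 with PP242 + IR and -0.23 and -0.25 with PP242. Protein-coding genes of mean level 8 or more also differ between these treatments, at -0.11 with PP242 + IR and 0.05 with PP242. The 5 treatments share the DMSO arrays.

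Genes of the translation machinery outside the TOP class gave smaller shifts. The initiation factors and 4E-BPs, which assemble the ribosome at the cap or hold back eIF4E, had a median TE change of -0.11 with 20 of 33 below 0, the same median as the brighter genes. EIF1AX, an initiation factor of the scanning ribosome, had the lowest p of that list at -1.07 ± 0.40 (unadjusted p = 0.0127). Its polysome levels overlapped between the groups, and both total arrays after PP242 + IR lay above the DMSO arrays. EIF4EBP1, which encodes 4E-BP1, was at 0.42 ± 0.27 and PAIP2, an inhibitor of poly(A)-binding protein, at -0.61 ± 0.32. LARP1, which binds TOP messages, was at -0.13 ± 0.23. The mTOR, PI3K and AKT pathway had a median of -0.05 (16 of 30 below 0). RPS6KB1, the S6 kinase downstream of mTOR, was at -0.36 ± 0.30 and TSC1, an inhibitor of the pathway, at -0.39 ± 0.29. Ribosome biogenesis factors had -0.11 (25 of 41 below 0), with the nucleolar protein NCL at -0.34 ± 0.20. Mitochondrial ribosomal proteins had -0.01 (36 of 71 below 0), and nuclear-encoded respiratory chain genes 0.16, where 21 of 65 were below 0. Leaving out PP242 + IR total replicate 1 or replicate 2 gave 0.21 and -0.12 for the mitochondrial ribosomal proteins, 0.25 and 0.062 for the respiratory chain, 0.022 and -0.038 for the mTOR pathway, -0.14 and -0.019 for ribosome biogenesis and -0.18 and -0.10 for the initiation factors. These medians were -0.075, 0.055, -0.11, -0.055 and -0.16, in that order, without the 8 arrays. None of these lists held a gene called for TE.

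Polysome RNA and total RNA each gave calls where the TE change did not. In polysome RNA, 21 genes passed (0.0938%): 15 fell (0.067%) and 6 rose (0.0268%). In total RNA, 6 passed (0.0268%): 1 fell (0.00447%) and 5 rose (0.0223%). The polysome count ran from 4 to 18 when 1 array was left out. It was 4 without PP242 + IR polysome replicate 3, 7 without replicate 2 of that group, and 5, 13 and 9 without DMSO polysome replicates 1, 2 and 3. The total count ran from 0 to 7, with 1 call without DMSO total replicate 1 and 0 (limma) without DMSO total replicate 3 or without PP242 + IR total replicate 2, where 1023 and 765 genes had an unadjusted p under 0.05. Without the 8 arrays 23 genes passed in polysome RNA and 0 in total RNA (limma; 1043 at an unadjusted p under 0.05).

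ID3, an inhibitor of helix-loop-helix transcription factors that BMP signalling induces, had the largest polysome change of the called genes. It had polysome levels of 6.19, 6.15 and 5.32 after PP242 + IR, against 8.19, 8.25 and 8.91 after DMSO. Its total levels were 5.66 and 5.68 after PP242 + IR, against 8.03, 7.51 and 9.03 after DMSO. The groups were far apart in both fractions: the polysome change was -2.56 (adjusted p = 0.00434, limma) and the total change -2.52 (adjusted p = 0.0245, limma), which left a TE change of -0.04 ± 0.60. SMAD7 and SMAD6, the inhibitory SMADs of BMP and TGF-beta signalling, and PMEPA1 and SKIL, which restrain TGF-beta signalling, also fell in polysome RNA, with log2 changes of -1.56, -1.54, -1.33 and -1.19. Their total changes were -1.49, -1.15, -1.18 and -0.66, none past the test, and their TE changes -0.07, -0.38, -0.16 and -0.53. These genes were not on a list of their own, and no enrichment was tested. SMAD7 had polysome levels of 5.51, 5.64 and 5.20 after PP242 + IR, against 6.95, 6.89 and 7.18 after DMSO, with no overlap. EDN2, which encodes endothelin 2, fell by 1.69 in polysome RNA, beside a total change of -1.02. The others that fell in polysome RNA were INSYN2B (-1.12), RFX7 (-1.02), MTF2 (-0.71), ZNF532 (-0.70), the ubiquitin ligase SIAH2 (-0.65) and NFYA (-0.63), a subunit of the CCAAT-binding factor NF-Y.

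HBP1, a transcriptional repressor of cell cycle genes, rose in both fractions. Its polysome levels were 9.18, 9.57 and 9.77 after PP242 + IR, against 7.74, 8.01 and 8.01 after DMSO. Its total levels were 8.84 and 9.51 after PP242 + IR, against 7.45, 7.52 and 7.67 after DMSO. The polysome change was 1.59 and the total change 1.63, both past the test, so the TE change was -0.04 ± 0.38. IRAK2, a kinase of interleukin 1 receptor signalling, rose by 1.30 in polysome RNA (total change 0.72, TE change 0.58 ± 0.29). EFNA1 (ephrin A1), PIM3 (a serine/threonine kinase), DMBT1 and ELP3 (the catalytic subunit of Elongator) rose by 1.08, 1.13, 1.24 and 0.65. In total RNA CCNG2 (cyclin G2, a FOXO target), UGCG (glucosylceramide synthase), ZBTB10 and the small nucleolar RNA SNORA28 rose by 0.83, 0.89, 1.33 and 1.72. EIF2S3, YBX1 and the pseudogene HNRNPA1P33 combined a called polysome fall with a total change within 0.15 of 0, whereas ID3, SMAD7, HBP1 and SIAH2 changed alike in both fractions.

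**Figure D4:**
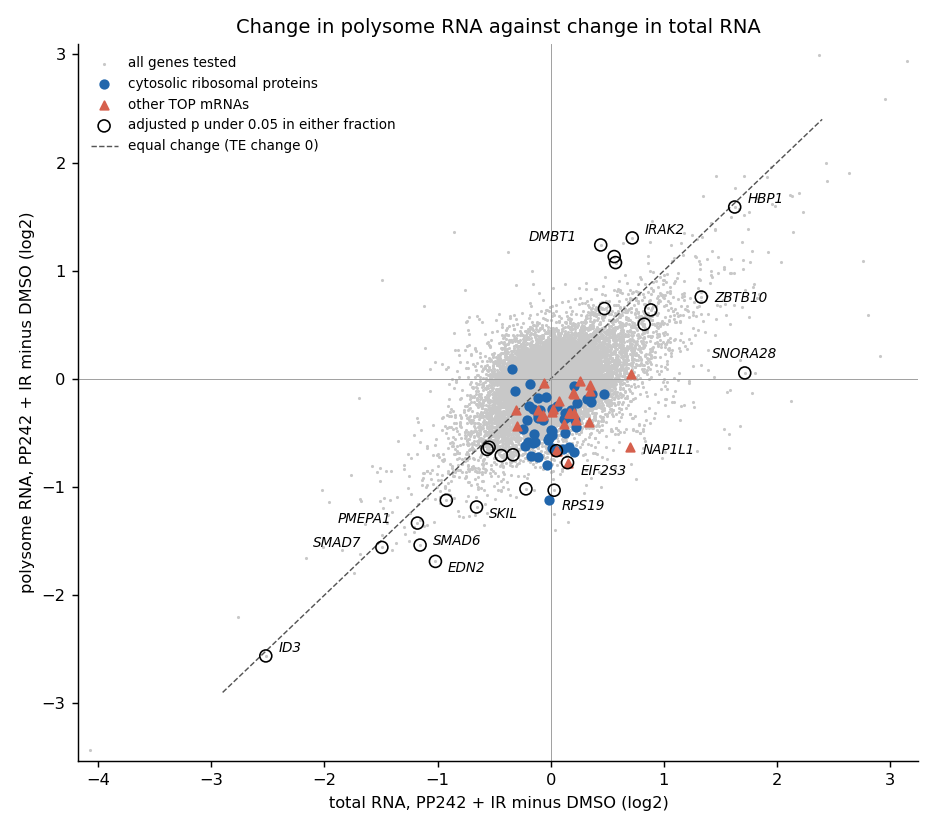
Change in polysome RNA (vertical axis) against change in total RNA (horizontal axis), both PP242 + IR minus DMSO on the log2 scale, for 22384 genes; blue points are ribosomal proteins, red triangles other TOP messages, circled genes passed the test in either fraction, and the dashed line marks a TE change of 0. ID3, SMAD7 and HBP1 lie on the line, while most members of the TOP lists lie below it. The median total change was -0.01 for ribosomal proteins and 0.15 for other TOP messages, of which EIF4B and NAP1L1 reached 0.71 and 0.70.

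The remaining genes of lowest p for TE, none past the test, were of several kinds. Among protein-coding genes that were lower, RDH14 (a retinol dehydrogenase) was at -0.83 ± 0.22, TRMT10A (a tRNA methyltransferase) at -0.70 ± 0.19 and SCD5 (a stearoyl-CoA desaturase) at -0.86 ± 0.26. RDH14 had polysome levels of 8.68, 8.42 and 8.12 after PP242 + IR, against 8.96, 8.82 and 8.71 after DMSO, and total levels of 8.84 and 8.60 after PP242 + IR, against 8.20, 8.35 and 8.39 after DMSO. It thus resembled NAP1L1 in being lower in polysome and higher in total RNA. Against the same DMSO arrays, however, its TE change was also -0.58 with PP242, -0.48 with IR, -0.36 with RAD001 + IR and -0.54 with RAD001. With IR, NAP1L1 was at -0.14. Over those treatments SCD5 ran from -0.69 to -0.37, and TRMT10A from -0.16 to 0.08. YY2 and FOXD4L1 were at -0.84 ± 0.24 and -0.60 ± 0.18 with PP242 + IR. Both were dim, with group means from 5.09 to 5.86 and from 3.95 to 4.55. Their polysome changes were -0.07 and -0.03 and their total changes 0.77 and 0.57, so the difference lay in total RNA. The genes that were higher were dim: PCDHA7, BAALC, CBY3, CCER1, GPR32, TAAR1 and CCR10 had group means from 3.41 to 5.12, close to the array medians of 4.19 to 4.84, and TE changes from 0.37 to 1.03. COA3, a cytochrome oxidase assembly factor, was at 1.02 ± 0.28, with total levels of 6.07 and 5.71 after PP242 + IR, against 6.44, 6.68 and 7.29 after DMSO.

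Among genes that do not encode proteins, SNORA28 had the lowest p of all genes at -1.66 ± 0.38 (unadjusted p = 0.000197). Its total levels were 5.23 and 5.50 after PP242 + IR, against 3.70, 3.81 and 3.44 after DMSO. Its polysome levels were 3.13, 3.51 and 3.16 after PP242 + IR, against 3.60, 3.19 and 2.85 after DMSO, so the difference was in total RNA alone. MIR1245B and the ribosomal protein pseudogene RPL23P8 were at -1.29 ± 0.30 and -1.21 ± 0.30, and SCARNA14, LINC00391 and TAAR3P at 1.13 ± 0.30, 0.86 ± 0.24 and 0.64 ± 0.18. At the threshold of the submitters' design text, an unadjusted p under 0.05 with a log2 change over 1.5, 7 genes passed for TE (0.0313%). They were SNORA28, SNORD20, SNORA14A, RNU6-61 and RPL22P11, which were lower, and IGHD3-3 and MIR190B, which were higher, with none of them protein-coding.

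Several lists had TE medians whose sign turned with the PP242 + IR total array used. For DNA replication genes, among them the origin factor ORC2 at -0.33 ± 0.22, the median TE change was 0.15 (15 of 51 below 0), but it was 0.95 without PP242 + IR total replicate 1 and -0.52 without PP242 + IR total replicate 2. For mitosis and G2/M genes it was 0.09, 0.59 and -0.57 in the same order, for replication-dependent histones 0.15, 0.62 and -0.34, and for proteasome subunits 0.14, 0.59 and -0.26. Sterol and fatty acid synthesis genes turned the other way, at 0.02, -0.23 and 0.39. Histone genes are near-identical copies, and 30 of the listed ones shared a probe set and were not analysed. The probe sets of the 22 measured may also report other copies, which was not tested.

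The per-array values show the arrays behind this. Against the DMSO mean of the same fraction, DNA replication genes lay at -0.20, -0.12 and -1.72 in PP242 + IR polysome replicates 1, 2 and 3 and at -0.03 and -1.66 in PP242 + IR total replicates 1 and 2. The DMSO arrays ran from -0.35 to 0.28. Sterol synthesis genes lay at -0.20, 0.32 and 1.11 in PP242 + IR polysome RNA and at -0.05 and 0.80 in PP242 + IR total RNA, with DMSO arrays from -0.19 to 0.26. With 1 of 3 polysome arrays and 1 of 2 total arrays standing apart, these arrays have unequal weight in the TE change. Without the 8 arrays the TE medians were -0.05 for DNA replication, -0.17 for mitosis, -0.02 for histones, 0.01 for proteasome subunits and 0.06 for sterol synthesis. Single genes of these lists had wide errors: the linker histone H1-4 was at 0.82 ± 1.19, the mitotic gene CDC20 at 0.51 ± 0.48 and the proteasome subunit PSMB6 at 0.95 ± 0.72.

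**Figure D5:**
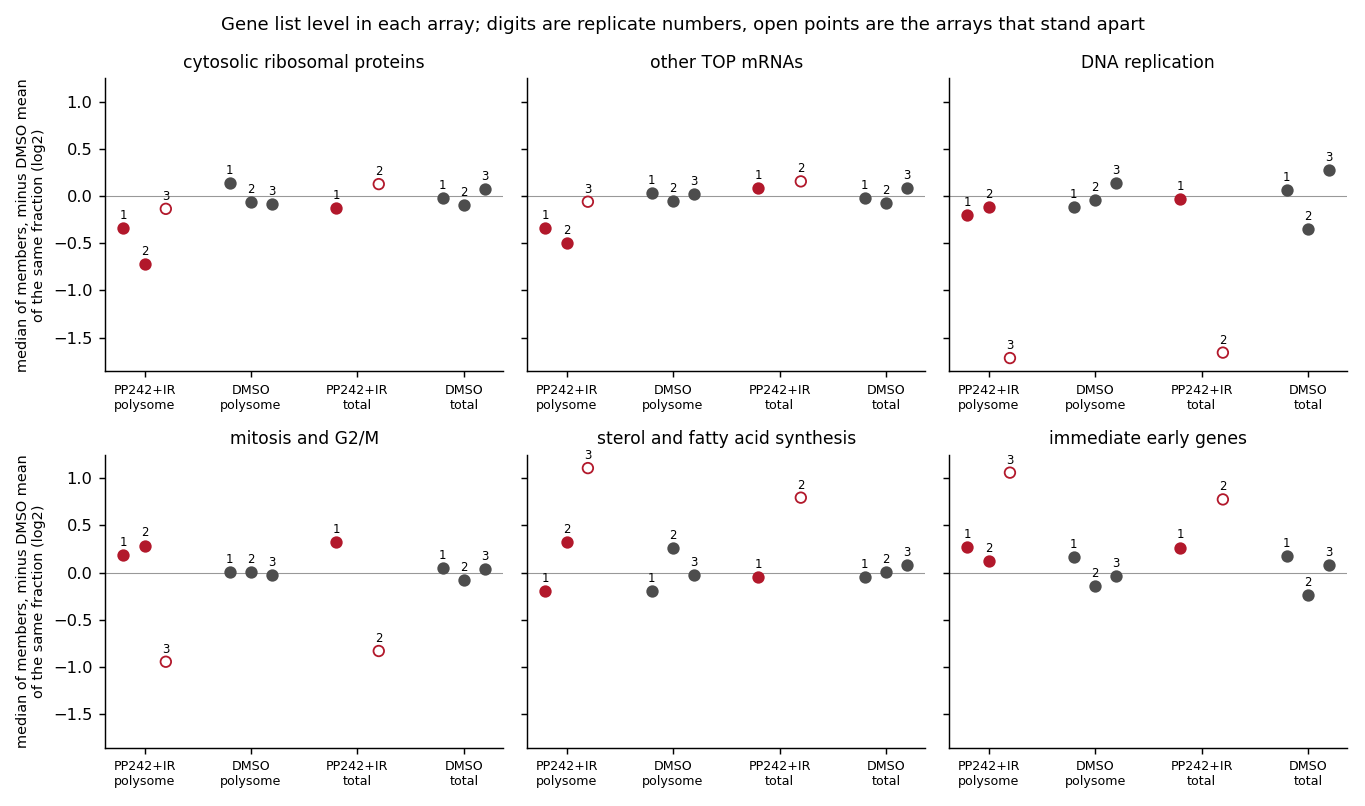
Median of 6 gene lists in each array (vertical axis, log2, minus the DMSO mean of the same fraction) for PP242 + IR (red) and DMSO (grey); digits are replicate numbers and open points are the arrays that stand apart. DNA replication genes lie at -1.72 and -1.66 in the open points, while ribosomal proteins are lowest in polysome replicates 1 and 2.

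The survival, stress and repair lists had TE medians from -0.15 to 0.07, beside 0.02 for all genes and -0.11 for the brighter genes, and they hold dim and bright members. Messages reported as sensitive to eIF4E had a median TE change of -0.15 (16 of 24 below 0). BCL2 and XIAP, which block apoptosis, were at -0.52 ± 0.25 and -0.45 ± 0.29. DNA damage checkpoint genes had -0.15 (21 of 35 below 0), with RAD50, a part of the complex that binds broken DNA ends, at -0.58 ± 0.28. Its total levels were higher in both PP242 + IR arrays than in any DMSO array. Homologous recombination and Fanconi anaemia genes had -0.09 (25 of 41), and end joining, excision and mismatch repair genes -0.05 (26 of 40), where the nucleotide excision repair factor XPA had -0.65 ± 0.29 (unadjusted p = 0.0369). Leaving out PP242 + IR total replicate 1 or replicate 2 gave 0.22 and -0.43 for checkpoint genes, 0.16 and -0.39 for homologous recombination, 0.061 and -0.21 for the other repair genes and -0.051 and -0.41 for the eIF4E-sensitive messages.

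ATF4 targets, which supply amino acids under stress, were at 0.01 (15 of 32 below 0). p53 targets had -0.05 (16 of 28), with TP53INP1 at -0.43 ± 0.21. FOXO targets and receptor feedback genes had -0.08 (19 of 29), and the unfolded protein response and chaperones -0.03 (18 of 31). Inflammatory genes had 0.07 (12 of 31 below 0), with the NF-kB inhibitor NFKBIA at 0.63 ± 0.31. Immediate early genes had 0.01 (16 of 32), but their polysome and total medians were 0.60 and 0.55, so that both fractions were higher by about the same amount. Their per-array values were 0.27, 0.12 and 1.06 in PP242 + IR polysome RNA and 0.27 and 0.78 in PP242 + IR total RNA, highest in the arrays that stand apart. Of the remaining lists, apoptosis regulators and interferon response genes each had -0.08 (18 of 29 and 23 of 35 below 0), aminoacyl-tRNA synthetases 0.02 (8 of 19), lysosome and autophagy genes 0.01 (19 of 39), and glycolysis and hypoxia genes 0.13 (14 of 35). The sign of many of these medians also turned with the total array. Leaving out PP242 + IR total replicate 1 or replicate 2 gave 0.30 and -0.18 for inflammatory genes, 0.20 and -0.14 for interferon response genes, 0.20 and -0.17 for lysosome genes, 0.069 and -0.27 for apoptosis regulators, 0.19 and -0.062 for glycolysis and 0.016 and -0.056 for the unfolded protein response. Immediate early genes turned the other way (-0.21 and 0.22), as did aminoacyl-tRNA synthetases (-0.14 and 0.15). Medians of these lists and of the survival and repair lists above ran, without the 8 arrays, from -0.27 for homologous recombination to 0.059 for aminoacyl-tRNA synthetases.

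The TE change with PP242 + IR was then set against that of its parts. The difference from PP242 was called for 0 genes (0.0%; limma; 346 or 1.55% at an unadjusted p under 0.05), that from IR for 0 (0.0%; 371 or 1.66%), that from RAD001 + IR for 0 (0.0%; 191 or 0.853%), and the interaction of PP242 and IR for 0 (0.0%; 180 or 0.804%). NAP1L1 had a TE change of -0.98 ± 0.30 with PP242, -0.47 ± 0.30 with RAD001 + IR and -0.14 ± 0.30 with IR, all against the same DMSO arrays. Its difference from PP242 was -0.35 ± 0.31, from RAD001 + IR -0.86 ± 0.31 (unadjusted p = 0.0113) and from IR -1.19 ± 0.31 (unadjusted p = 0.000819). EIF2S3 had differences of -0.13 ± 0.22 from PP242, -0.67 ± 0.22 from RAD001 + IR and -0.96 ± 0.22 from IR. For YBX1 they were -0.46 ± 0.19, -0.55 ± 0.19 and -0.70 ± 0.19. None of these differences passed after adjustment over all genes. The shares at an unadjusted p under 0.05 were again smaller than the threshold, so the counts of 0 do not show that the TE changes were equal. With a term for the 8 arrays, the difference of NAP1L1 from IR was -1.11 ± 0.17 with an adjusted p of 0.0183 (limma), the only call for a difference in any setting run at that threshold.

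For the ribosomal proteins the median difference was -0.27 from RAD001 + IR, with 46 of 48 below 0 (58.5% of the brighter genes), and -0.32 from IR, with 42 of 48 below 0 (57.0%). From PP242 it was -0.16 with 42 of 48 below 0, but the brighter protein-coding genes had -0.18 with 77.8% below 0. The ribosomal proteins thus differed from PP242 by no more than other bright genes did. Leaving out the 8 arrays, their median differences from RAD001 + IR, IR and PP242 were -0.28, -0.31 and -0.12, beside -0.14, -0.17 and -0.37 for the brighter genes. The other TOP messages had median differences of -0.30, -0.34 and -0.21 from RAD001 + IR, IR and PP242, and -0.29, -0.38 and -0.20 without the 8 arrays. By the same rule of lowest p, ST13, a cofactor of the HSP70 chaperone, had a difference of -0.95 ± 0.22 from IR, and TRMT10A one of -0.69 ± 0.19 from RAD001 + IR. SNORA28 had differences of -1.52 ± 0.38 from PP242 and -1.80 ± 0.38 from IR, but of only -0.35 ± 0.38 from RAD001 + IR. Its TE change against DMSO was -1.31 with RAD001 + IR and -1.31 with RAD001, so it was not particular to PP242 + IR. The others of lowest p were noncoding or dim genes: LINC00908 (-0.73 ± 0.18), DEFB134 (0.72 ± 0.19) and MIR544A (1.26 ± 0.34) against PP242, PCDHA7 (0.76 ± 0.22) and MIR370 (0.80 ± 0.21) against IR, and MIR380 (-0.65 ± 0.18), OR11H2 (0.75 ± 0.21) and SCARNA1 (1.59 ± 0.50) against RAD001 + IR. For the interaction they were MIR544A (1.62 ± 0.47), OR10V2P (1.15 ± 0.35), FAM238A (-0.85 ± 0.26) and LINC00210 (-0.81 ± 0.25).

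The labelled cell line was checked against markers. The list for basal epithelial cells also holds KRT8, KRT18, CDH1 and EPCAM, which are not particular to basal cells. For 5 of its genes there was no single-symbol probe set, and 1 shared a probe set. Of the 9 members measured, 7 had a mean level of 8 or more, KRT8, KRT18, CDH1 and EPCAM among them. KRT5 was at 16.26 and 15.69 in PP242 + IR polysome and total RNA and at 16.36 and 16.03 in DMSO polysome and total RNA (group means). KRT14 and ITGB4 were the exceptions, with group means from 6.76 to 7.17 and from 7.15 to 7.72. Of 9 markers of luminal hormone receptor cells, 1 had a mean level of 8 or more. ESR1 and PGR, the hormone receptors that triple-negative cells lack, had group means from 4.28 to 4.38 and from 3.45 to 3.53, near the array medians, while FOXA1, GATA3 and XBP1 of the same list had group means from 5.81 to 6.54, from 7.58 to 8.28 and from 8.18 to 8.80. Of the fibroblast, leukocyte and endothelial markers, 1 of 13, 1 of 13 and 1 of 12 had a mean level of 8 or more (FAP, CD68 and ENG), and PTPRC, COL1A1 and PECAM1 were between 3.55 and 5.13. The median TE change of the 5 marker lists ran from 0.03 to 0.10.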

How the data were processed

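Levels of RNA in polysome and total fractions were read from the table of 35 Affymetrix human transcriptome arrays that the authors deposited, as log2 values per probe set (65029 probe sets, 1.85 to 19.9). The scale was inferred from the values. The normalization is not given in the sources used here, and the protocol fields of the labels describe mouse limb tissue of another study, so they were not used. Probe sets were named from the platform annotation (23077 with 1 gene symbol, 1357 with several, 40595 unnamed here). For each symbol the probe set of highest mean over all arrays was kept.

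All arrays entered 1 fit of 12 group means (limma 3.58.1, lmFit and eBayes, R 4.3.3; 23 residual degrees of freedom), so the 2 PP242 + IR total arrays share the spread of the other groups. TE changes were contrasts of group means, not of paired arrays. P-values were adjusted over 22384 genes by Benjamini-Hochberg and called under 0.05. The fit was tested on simulated data. Gene lists were described by counts and medians, with no test. Named genes were the 8 protein-coding and 3 other genes of lowest p each way, up to 3 per list, 2 each way per difference, 5 fixed translation genes and all called genes. The members, lists and arrays that stand apart were chosen with earlier results of these data known. Alternatives are in the closing section. The number of arrays limits the precision.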

Additional observations from a re-analysis of the deposited data

How the results depend on the processing

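For TE, 0 genes were called with quantile normalization, the low-level filter, the replicate block, only the groups compared, array weights, a variance trend, all probe sets, without the 8 arrays and without any 1 of 11 arrays (limma; 0 to 0, beside 495 at an unadjusted p under 0.05 in the fit reported), 1 gene (NAP1L1) was called with a term for the 8 arrays, and 7 passed the design text's threshold. The polysome count of 21 became 10 with all probe sets, 185 with array weights, 0 with only the groups compared (1945 at an unadjusted p under 0.05), 46 with quantile normalization, 99 with a term for the 8 arrays, 13 with a variance trend and 4 to 18 without 1 array. The total count of 6 became 1, 34, 0, 23 and 18 in the first 5 of these, 0 without the 8 arrays, 43 at the design text's threshold and 0 to 7 without 1 array. At that threshold the differences from PP242, IR and RAD001 + IR and the interaction gave 7, 5, 3 and 2 genes, and with a term for the 8 arrays 1 gene (NAP1L1) was called against IR. Replicate numbers were not taken to pair the arrays, since the deviations of same-numbered arrays correlated above 0.1 in 6 of 10 pairs and not in all (-0.35 to 0.51). The -0.35 was from PP242 + IR polysome and total replicate 2. That total array correlated at 0.61 with PP242 + IR polysome replicate 3, which also stands apart. DMSO polysome and total replicate 2 were at -0.08. The fit with a replicate block called 59 genes in polysome RNA and 33 in total RNA. It used the labelled numbers, so PP242 + IR total replicate 2 was blocked with the replicate 2 arrays.

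Of 132 named genes, 13 changed sign under some setting, 21 times in all. Without the 8 arrays SNHG17 was at -0.17, H2AC14 at 0.066, H2AC13 at -0.069 and ATG2A at -0.098. Leaving out PP242 + IR total replicate 2 or replicate 1 gave -0.091 and 0.53 for HARS1, -0.43 and 2.07 for H1-4, -0.32 and 1.10 for H2AC13, -0.070 and 0.39 for ATG2A, -0.074 and 0.98 for PSMC4, -0.021 and 0.63 for KRT18, -0.095 and 0.55 for CDH3, 0.67 and -0.49 for SCARNA1 and -0.27 and 0.017 for LINC00210. LINC00210 was at 0.044 without DMSO total replicate 3, and H2AC14 ran from -0.43 without PP242 + IR polysome replicate 1 to 0.014 without replicate 3. SCARNA1 was at -0.051 without DMSO polysome replicate 3 and -0.23 without DMSO total replicate 2. With array weights HOTAIR was at -0.024 and SCARNA1 at -0.0075, and with quantile normalization SCARNA1 was at -0.0055 and FAM238A at -0.017. The cause was not tested.

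The TE change was lower at higher levels, from a median of 0.10 under a level of 4 to -0.13 at 10 to 12, and after quantile normalization both were 0.01. A list's median therefore also depends on its members' levels. The median standard error of a TE change was 0.26, and in the fit reported no single TOP message passed after adjustment. Restricted to members of mean level 8 or more, a setting added after seeing the data, the medians were -0.46 for ribosomal proteins and -0.46 for other TOP messages. From the arrays that stand apart alone, also added, they were -0.32 and -0.24. That setting rests on PP242 + IR polysome replicate 3 and total replicate 2, with no replication in either fraction.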
